A study of Mus musculus with 6 samples.

Results

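Naive CD8 T cells were compared by RNA-seq for 10 genes that encode transporters of amino acids and peptides at the plasma membrane. The genes were taken by symbol from a table of 55450 genes: Slc43a2, Slc43a1, Slc7a5, Slc7a6, Slc3a2, Slc7a1, Slc1a5, Slc38a1, Slc38a2 and Slc15a2. All 10 were in the table and all had enough counts to be tested, among 13470 tested genes. The group was chosen by function with its levels in CD103KO and WT cells already known. It was built around the CPM of Slc43a2 and Slc15a2, which were known to differ between the genotypes, so the differences between the genotypes are given for these genes as a description. The CD103KO samples came from Itgae-/- mice, which lack the integrin alpha E chain (CD103), and the WT samples from C57BL/6 mice, with 3 libraries in each group. In both groups the cells were sorted from lymph nodes as CD8 T cells negative for Ly6C and CXCR3, and no treatment is given. The sources used here give neither the age and sex of the mice, nor the strain background of the Itgae-/- mice, nor whether each library came from its own animal. The p-values therefore measure only the spread between these samples, which may be technical. In WT that spread also takes in the difference in sex-linked transcripts given below.

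Amino acids enter a T cell through transporters with overlapping substrates. Exchangers built from a light chain and the shared heavy chain CD98 bring in large neutral amino acids such as leucine in return for others, uniporters of the SLC43 family let large neutral amino acids equilibrate across the membrane, and sodium-coupled transporters build up glutamine, alanine and serine inside the cell. In T cells several of these genes are strongly induced by antigen, and leucine and glutamine uptake feed the mTORC1 kinase and protein synthesis, while resting naive cells take up little. PEPT2, the product of Slc15a2, imports short peptides together with protons and is best known from kidney and brain.

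The libraries held 68292475 to 76044311 counts in CD103KO and 74438908 to 94347034 in WT, so 1 count was worth 0.0106 to 0.0146 CPM, the count scaled to library size. Itgae averaged 65.6 ± 3.90 CPM in CD103KO and 482 ± 19.3 CPM in WT (SD, n = 3 each), so CD103KO kept 13.6% of the WT mean. Of the CD8 T cell markers, Cd8a was at 1479 ± 24.9 CPM in CD103KO and 1452 ± 13.4 CPM in WT, Cd8b1 at 1726 ± 31.4 CPM in CD103KO and 1722 ± 55.6 CPM in WT, and Cd3e at 414 ± 5.77 CPM in CD103KO and 407 ± 12.1 CPM in WT. Cd4 was at 0.181 ± 0.0977 CPM in CD103KO and 0.348 ± 0.372 CPM in WT. The WT libraries were not alike in their sex-linked transcripts: WT replicates 1 and 2 had 5012 and 7628 counts of Xist and 0 of the Y-linked Ddx3y, whereas the 3 CD103KO libraries and WT replicate 3 had 0 to 2 counts of Xist and 3612 to 4466 of Ddx3y. Only WT replicate 3 therefore matches the CD103KO libraries in this respect. For the transporters and the gene lists, values without the Xist-positive libraries are given below where they change a call.

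Slc43a2, which encodes the uniporter LAT4 for branched-chain amino acids, phenylalanine and methionine, was higher in CD103KO. It had 155, 159 and 158 CPM in CD103KO replicates 1, 2 and 3, against 99.1, 107 and 98.3 CPM in WT replicates 1, 2 and 3. The groups did not overlap, and the gap between them, from 107 to 155 CPM, was several times the range within either group. The means were 158 ± 2.22 CPM in CD103KO and 102 ± 5.03 CPM in WT (SD, n = 3 each), a ratio of 1.55. The log2 fold change was 0.63 (SE 0.04, 95% interval 0.53 to 0.73, adjusted p = 0.000458, edgeR quasi-likelihood test with Benjamini-Hochberg adjustment over all tested genes). Slc43a2 ranked number 6 of the 13470 tested genes by p.

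Slc43a2 (ENSMUSG00000038178.16) is a protein-coding gene on the plus strand of chromosome 11, from 75531694 to 75577575 on GRCm38, and starts 2.44 Mb from the start of Itgae. An annotated antisense RNA, Gm45606, spans the start of Slc43a2 on the opposite strand (75530277 to 75533071) and shares 922 exon bases with it. The strand setting of the authors' counting is not given, so reads of this pair cannot be told apart. Gm45606 was at 20.8 ± 1.23 CPM in CD103KO and 18.8 ± 2.08 CPM in WT. Its log2 fold change of 0.14 did not pass (adjusted p = 0.695, edgeR). Summed with Gm45606, Slc43a2 was at 178 ± 3.24 CPM in CD103KO and 120.4 ± 6.24 CPM in WT, a ratio of 1.48.

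RefSeq places 2 starts of Slc43a2 close together, and the windows from 250 bases before to 50 bases after each are shown because this gene differed between the groups. They lie at chr11:75531444-75531743 and chr11:75531862-75532161 (GRCm38.p6, plus strand) and are written 5′ to 3′ with each GC box (GGGCGG on either strand) in capitals:
Slc43a2 first start: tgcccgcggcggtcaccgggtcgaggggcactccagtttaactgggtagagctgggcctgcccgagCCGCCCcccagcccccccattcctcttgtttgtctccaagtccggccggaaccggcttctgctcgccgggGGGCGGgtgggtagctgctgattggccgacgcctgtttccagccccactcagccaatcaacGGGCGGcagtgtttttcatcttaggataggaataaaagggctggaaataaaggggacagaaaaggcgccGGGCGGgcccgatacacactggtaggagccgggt
Slc43a2 second start: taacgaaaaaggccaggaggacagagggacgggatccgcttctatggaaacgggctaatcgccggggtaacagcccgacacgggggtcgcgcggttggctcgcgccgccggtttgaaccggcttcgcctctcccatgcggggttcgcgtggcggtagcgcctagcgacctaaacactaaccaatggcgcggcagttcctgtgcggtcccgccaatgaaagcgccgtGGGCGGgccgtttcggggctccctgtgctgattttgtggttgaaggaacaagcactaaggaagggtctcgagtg
The first window held 4 GC boxes and the second 1. Across 32851 windows of the same length, 35.7% held at least 1. Neither window held the E-box CACGTG that MYC and related factors bind (7.15% of all windows on either strand) or the letters TGATGNAA of the composite element bound by ATF4 with C/EBP proteins (3.97%). These matches describe the letters in these windows and no more. The tables held promoter windows for 7 of the 10 genes.

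The 2 tested genes starting nearest to Slc43a2 on each side were read beside it, since its chromosome carries the targeted gene. Starts here are the lowest coordinate of each gene, whatever its strand. On one side by this measure are Gm45606, which overlaps Slc43a2, and Prpf8, a core splicing factor gene whose start is 44.9 kb away. Tlcd2, 70.0 kb away, is next on that side and is given below. Prpf8 was at 664 ± 19.8 CPM in CD103KO and 655 ± 29.6 CPM in WT, 0.02 apart on the log2 scale (adjusted p = 0.927, edgeR). On the other side, 56.4 kb away, Pitpna, a phosphatidylinositol transfer protein gene, was at 307 ± 3.63 CPM in CD103KO and 292 ± 8.47 CPM in WT, a log2 difference of 0.07 without a call (adjusted p = 0.626, edgeR). Inpp5k, an inositol phosphatase gene 99.3 kb away, rose to 92.9 ± 5.39 CPM in CD103KO, against 72.3 ± 1.78 CPM in WT (log2 fold change 0.36, SE 0.05, adjusted p = 0.0253, edgeR). Within 1 Mb of Slc43a2, 2 of 35 tested genes were called with edgeR, where 0.223% of all tested genes were called, and both were higher: Inpp5k and, named after its values were seen, Tlcd2, at 1.72 ± 0.139 CPM in CD103KO and 0.150 ± 0.0696 CPM in WT. Whether Inpp5k and Tlcd2 keep these calls without the Xist-positive libraries was not examined. Of the 35 genes, 16 had groups that did not overlap, where 14.2% of all tested genes had such groups. An unadjusted p under 0.05 (edgeR) was found for 10 of the 35, against 8.73% of all tested genes. Around each of the other 9 transporters the same window held 9 to 57 tested genes, 0 of them called with edgeR. In those windows 0 to 4 genes had an unadjusted p under 0.05 (edgeR), and 0 to 6 had groups that did not overlap. For the 10 tested genes around Slc38a2 these counts were 3 and 4, and for the 12 around Slc7a1 both were 0. Position beside Itgae and loss of CD103 cannot be told apart for Slc43a2 in this design.

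**Figure D1:**
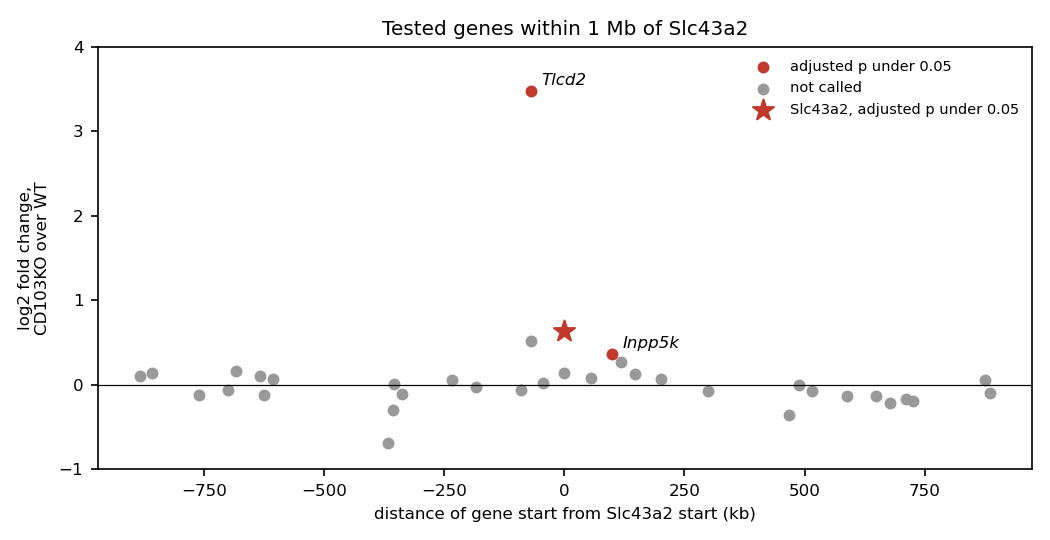
Log2 fold change (CD103KO over WT, edgeR) of the tested genes that start within 1 Mb of Slc43a2, against the distance of their start from its start in kb; the star is Slc43a2 and red marks an adjusted p under 0.05. Slc43a2 (0.63), Tlcd2 (3.48) and Inpp5k (0.36) are the called genes, and most of the others lie close to 0 on both sides.

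Slc43a1, the paralogue of Slc43a2, encodes LAT3, a uniporter with like substrates. It was barely expressed, with 133, 96 and 122 counts in CD103KO replicates 1, 2 and 3 and 109, 155 and 90 counts in WT replicates 1, 2 and 3. These are 1.81, 1.41 and 1.61 CPM in CD103KO, against 1.46, 1.62 and 1.13 CPM in WT, and the groups overlap. Its log2 fold change of 0.20 did not pass (SE 0.19, 95% interval -0.23 to 0.63, adjusted p = 0.796, edgeR). The upper end of that interval lies inside the interval of Slc43a2, so the counts of Slc43a1 do not tell a change nearly as large from none. Per kilobase of exon, Slc43a2 was at 56.3 ± 7.81 times the level of Slc43a1 in CD103KO and 42.0 ± 6.46 times in WT (SD, n = 3 each).

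Slc15a2, encoding the proton-coupled peptide transporter PEPT2, was the other transporter called. It had 473, 485 and 529 counts in CD103KO replicates 1, 2 and 3, against 284, 297 and 316 counts in WT replicates 1, 2 and 3. Scaled to library size, these are 6.44, 7.12 and 6.998 CPM in CD103KO and 3.79, 3.10 and 3.98 CPM in WT. Each CD103KO library was above each WT library, and the highest WT library was replicate 3, the one without Xist reads. The means were 6.85 ± 0.361 CPM in CD103KO and 3.62 ± 0.460 CPM in WT (SD, n = 3 each), a ratio of 1.89. The log2 fold change was 0.92 (SE 0.11, 95% interval 0.67 to 1.17, adjusted p = 0.0125, edgeR). The call was lost with a term for Xist reads, where the log2 fold change was 0.79 (adjusted p = 0.372, edgeR), and when only the 4 libraries without Xist reads were fitted (0.79, adjusted p = 0.250, edgeR, 1 WT library assumed to vary like the CD103KO libraries). It was also lost without CD103KO replicate 2 (0.89, adjusted p = 0.0976, edgeR), without CD103KO replicate 3 (0.90, adjusted p = 0.0611, edgeR) and without WT replicate 1 (0.96, adjusted p = 0.0564, edgeR). With the replicate number as a block it was lost too (0.93, adjusted p = 0.0539, edgeR). Over all 17 alternatives the log2 fold change of Slc15a2 was 0.79 to 0.99, positive in each, and its adjusted p 6.1e-09 (DESeq2) to 0.372.

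Slc15a2 (ENSMUSG00000022899.9) lies on the minus strand of chromosome 16, from 36750177 to 36784962 on GRCm38. The window around its RefSeq start, chr16:36784913-36785212 (GRCm38.p6, minus strand), is shown for the same reason as those of Slc43a2, with the GC box in capitals:
Slc15a2: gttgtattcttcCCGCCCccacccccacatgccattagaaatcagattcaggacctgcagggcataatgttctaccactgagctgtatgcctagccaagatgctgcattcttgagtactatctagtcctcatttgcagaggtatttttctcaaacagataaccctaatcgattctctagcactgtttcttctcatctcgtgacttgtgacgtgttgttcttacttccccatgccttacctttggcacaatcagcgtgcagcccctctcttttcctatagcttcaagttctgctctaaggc
It held 1 GC box, 0 E-boxes and 0 composite elements. Its GC content was 46.3%, against 63.7% and 62.7% in the windows of Slc43a2.

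Other peptide transporters were read beside Slc15a2. Slc15a4, an endolysosomal transporter of histidine and peptides, was at 22.8 ± 1.40 CPM in CD103KO and 21.9 ± 1.78 CPM in WT, 0.06 apart on the log2 scale (adjusted p = 0.858, edgeR). Slc15a1, encoding the intestinal transporter PEPT1, was at 0.629 ± 0.0623 CPM in CD103KO and 0.736 ± 0.210 CPM in WT, a log2 difference of -0.22 (adjusted p = 0.841, edgeR). Of the 4 genes in this list, these 2 were tested, with 0 called by edgeR, DESeq2 or limma-voom and 0 at an unadjusted p under 0.05.

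**Figure D2:**
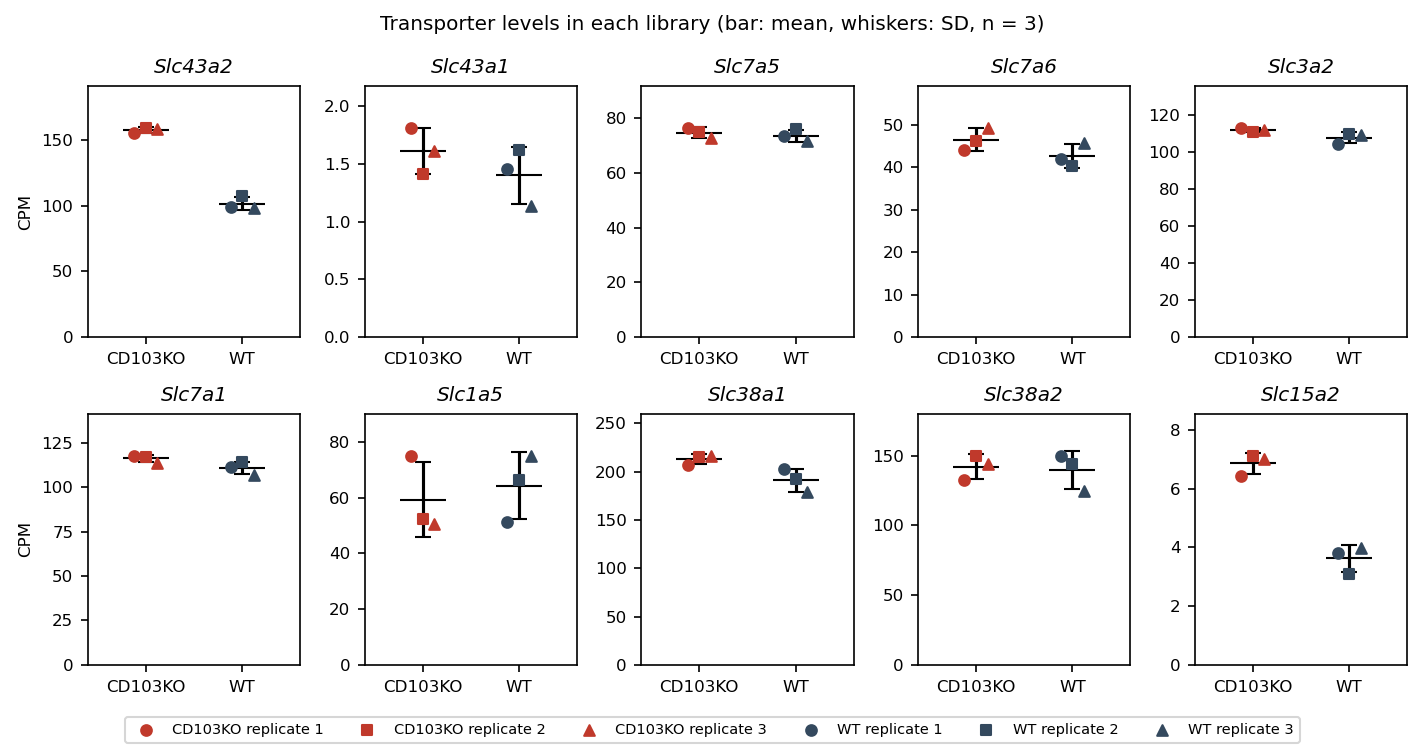
Level of each transporter gene in each library in CPM, with CD103KO left of WT, marker shapes for the replicate number, bars for the mean and whiskers for the SD (n = 3). Slc43a2 and Slc15a2 are the genes whose groups stand clearly apart, and Slc1a5 runs from 50.4 to 74.8 CPM within CD103KO and from 51.3 to 75.0 CPM within WT.

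The heterodimeric exchangers were close to equal in the 2 groups. Slc7a5 encodes LAT1, the light chain that imports leucine and is induced on T cell activation. It had 76.6, 75.0 and 72.8 CPM in CD103KO replicates 1, 2 and 3, against 73.5, 76.1 and 71.7 CPM in WT replicates 1, 2 and 3. The groups overlap throughout, and the log2 fold change of 0.02 had a 95% interval of -0.07 to 0.11 (adjusted p = 0.919, edgeR). Slc3a2 encodes CD98, the heavy chain that carries the light chains to the membrane. It had 113, 111 and 112 CPM in CD103KO, against 104, 109.9 and 109 CPM in WT. Its groups just failed to overlap, but the log2 fold change of 0.06 (95% interval -0.03 to 0.14) did not pass (adjusted p = 0.709, edgeR). The spread of Slc3a2 within CD103KO was 0.910% of its mean, the narrowest of the 10 genes. Slc7a6 encodes y+LAT2, a light chain that exchanges cationic for neutral amino acids. It had 44.0, 46.2 and 49.2 CPM in CD103KO, against 41.8, 40.3 and 45.7 CPM in WT. WT replicate 3 lay above CD103KO replicate 1, and the log2 fold change of 0.12 (95% interval -0.02 to 0.27) did not pass (adjusted p = 0.641, edgeR). Per kilobase of exon, heavy chain mRNA was at 1.57 ± 0.0341 times the level of Slc7a5 mRNA in CD103KO and 1.54 ± 0.0562 times in WT.

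Slc7a1 encodes CAT1, the main carrier of arginine and lysine. It had 118, 117 and 114 CPM in CD103KO replicates 1, 2 and 3, against 111, 114 and 107 CPM in WT replicates 1, 2 and 3. The lowest CD103KO library and the highest WT library overlap, and the log2 fold change of 0.07 (95% interval -0.02 to 0.16) did not pass (adjusted p = 0.674, edgeR).

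Among the sodium-dependent carriers of neutral amino acids, Slc38a1 and Slc38a2 encode SNAT1 and SNAT2, which accumulate glutamine, alanine and serine, and Slc1a5 encodes ASCT2, an exchanger of glutamine and other neutral amino acids. Slc38a1 had 207, 215 and 217 CPM in CD103KO replicates 1, 2 and 3, against 202, 193 and 179 CPM in WT replicates 1, 2 and 3. Every CD103KO library was above every WT library, by little in the case of WT replicate 1. Its log2 fold change of 0.15 (SE 0.05, 95% interval 0.04 to 0.27) had an unadjusted p of 0.0136 and did not pass over all genes (adjusted p = 0.440, edgeR). Slc38a2 had 132, 149.8 and 144 CPM in CD103KO, against 150.1, 144 and 124 CPM in WT. The WT range holds all the CD103KO values, and the log2 fold change was 0.03 (95% interval -0.14 to 0.19, adjusted p = 0.945, edgeR).

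Slc1a5 was the most variable of the 10 genes. It had 74.8, 52.5 and 50.4 CPM in CD103KO replicates 1, 2 and 3, against 51.3, 66.1 and 75.0 CPM in WT replicates 1, 2 and 3. Each group thus held a library near 75 and one near 51 CPM. Its spread was 22.8% of the mean in CD103KO and 18.7% in WT, from 3575 to 6332 counts per library, whereas Slc7a5 varied by 2.56% and 2.97% in the same libraries. The mean was 59.2 ± 13.5 CPM in CD103KO and 64.1 ± 12.01 CPM in WT (SD, n = 3 each). Slc1a5 was the only one of the 10 with a negative log2 fold change, -0.12 (SE 0.17, 95% interval -0.50 to 0.26), which did not pass (adjusted p = 0.874, edgeR) and was 0.01 without WT replicate 3.

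**Figure D3:**
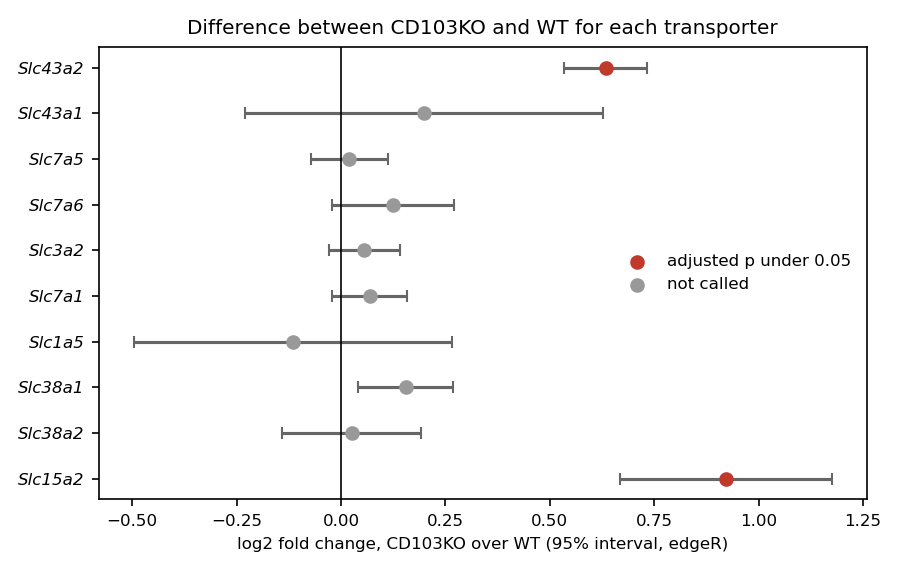
Log2 fold change of each transporter gene, CD103KO over WT, with its 95% interval from edgeR; red marks an adjusted p under 0.05. The intervals of Slc43a2 (0.53 to 0.73) and Slc15a2 (0.67 to 1.17) lie apart from those of Slc7a5, Slc7a6, Slc3a2, Slc7a1, Slc1a5, Slc38a1 and Slc38a2, while that of Slc43a1 reaches 0.63.

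Counted together, 2 of the 10 transporters were called with edgeR, both higher, where 0.223% of all tested genes were called in either direction and 0.141% as higher. DESeq2 and limma-voom called the same 2, where DESeq2 called 1.02% and limma-voom 0.215% of genes over the table. The comparison had been used in picking the genes, so nothing is read from that count. Of the remaining 8, edgeR, DESeq2 and limma-voom called 0, and 1 (Slc38a1) had an unadjusted p under 0.05, as did 8.73% of tested genes. The groups did not overlap for 4 of the 10, all higher (Slc43a2, Slc15a2, Slc38a1 and Slc3a2), against 14.2% of tested genes in either direction and 6.82% as higher. The median log2 fold change was 0.10 over the 10 and 0.06 over the 8, against -0.003 over all tested genes. With TMM, RLE or upper-quartile factors or total counts alone, Slc43a2 and Slc15a2 were both called. Slc43a2 passed in all 17 alternatives that were run, with log2 fold changes of 0.61 to 0.68 and adjusted p of 8.2e-30 (DESeq2) to 0.0150 (only libraries without Xist reads, edgeR).

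Levels were also put in order per kilobase of exon, using the combined length of all annotated exons of each gene, which understates genes with long or rarely used exons. In CD103KO the order was Slc3a2, Slc7a5, Slc38a2, Slc43a2, Slc1a5, Slc38a1, Slc7a6, Slc7a1, Slc15a2 and Slc43a1. In WT Slc43a2 stood lower, after Slc1a5 and Slc38a1, and the order of Slc7a1 and Slc7a6 was turned round. Slc3a2, at 31.5 to 32.1 CPM per kb in CD103KO libraries and 29.6 to 31.1 in WT libraries, and Slc7a5, at 19.6 to 20.7 in CD103KO and 19.3 to 20.5 in WT, were clear of all others. In CD103KO Slc43a2 (15.4 to 15.9 CPM per kb) overlapped Slc38a2 (15.0 to 16.9) and Slc1a5 (12.1 to 17.9), Slc1a5 overlapped Slc38a1 (12.01 to 12.6), and Slc7a6 (9.62 to 10.8) overlapped Slc7a1 (9.85 to 10.2). In WT Slc43a2 (9.78 to 10.7 CPM per kb) overlapped Slc38a1 (10.4 to 11.7), Slc7a1 (9.29 to 9.89) and Slc7a6 (8.82 to 10.01) and lay below Slc38a2 (14.1 to 17.0) and Slc1a5 (12.3 to 18.0). Slc15a2 was far lower, at 0.875 to 0.967 CPM per kb in CD103KO and 0.421 to 0.540 in WT, above 24.6% of tested genes by its mean over all libraries. Slc43a1 was at 0.247 to 0.317 CPM per kb in CD103KO and 0.198 to 0.283 in WT.

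Genes around these transporters were read from lists built on known function, the 10 transporters left out. Among 46 other amino acid transporters of the plasma membrane and lysosome, 17 were tested, 0 were called by edgeR, DESeq2 or limma-voom and 0 had an unadjusted p under 0.05, with a median log2 fold change of -0.01. The pair of smallest p were Slc38a10, a Golgi and endoplasmic reticulum member of the SNAT family at 109 ± 1.76 CPM in CD103KO and 104 ± 0.296 CPM in WT (adjusted p = 0.604, edgeR), and Slc36a1, the lysosomal proton-coupled transporter PAT1 at 15.6 ± 1.91 CPM in CD103KO and 14.3 ± 0.556 CPM in WT (adjusted p = 0.723, edgeR).

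Of 37 genes of amino acid sensing and mTORC1, edgeR, DESeq2 and limma-voom called 0, and the median log2 fold change was -0.01. An unadjusted p under 0.05 (edgeR) was found for 3 positive changes and 1 negative one, where 8.73% of all tested genes had one. Rragb, one of the small GTPases that recruit mTORC1 to the lysosome, was at 5.24 ± 0.0213 CPM in CD103KO and 6.09 ± 0.259 CPM in WT (log2 fold change -0.22, adjusted p = 0.490, edgeR). Depdc5, a subunit of the GATOR1 complex that restrains mTORC1 when amino acids are scarce, was at 28.5 ± 0.368 CPM in CD103KO and 25.8 ± 1.11 CPM in WT (0.15, adjusted p = 0.515, edgeR).

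The integrated stress response, by which cells short of amino acids induce ATF4 and through it transporter genes such as Slc7a5, Slc3a2 and Slc38a2, had 21 tested genes. EdgeR and limma-voom called 0 of them, and the median was -0.01. An unadjusted p under 0.05 (edgeR) was found for 1 positive change and 2 negative ones, where 8.73% of all tested genes had one. DESeq2 called 1, Eif2ak2, the kinase PKR that responds to double-stranded RNA, at 50.1 ± 2.88 CPM in CD103KO and 40.9 ± 3.05 CPM in WT (log2 fold change 0.29, adjusted p = 0.240, edgeR; 0.0112, DESeq2). Ddit4, an inhibitor of mTORC1 signalling, was at 298 ± 21.6 CPM in CD103KO and 341 ± 36.1 CPM in WT (log2 fold change -0.19, adjusted p = 0.528, edgeR).

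The 20 cytosolic aminoacyl-tRNA synthetase genes, whose products load amino acids onto tRNA, had 0 calls with edgeR, DESeq2 or limma-voom and 0 genes at an unadjusted p under 0.05, and all their log2 fold changes lay between -0.10 and 0.08. Qars was at 117 ± 3.25 CPM in CD103KO and 124 ± 3.38 CPM in WT (log2 difference -0.08, adjusted p = 0.631, edgeR). Eprs was at 176 ± 4.88 CPM in CD103KO and 169 ± 2.33 CPM in WT (adjusted p = 0.695, edgeR). The groups did not overlap for these 2 of the 20 genes, where 14.2% of all tested genes had such groups. Genes of branched-chain amino acid, glutamine and polyamine metabolism, 19 tested, likewise had 0 calls with the 3 tools and 0 at an unadjusted p under 0.05, with log2 fold changes between -0.12 and 0.09. Sms, spermine synthase, was at 91.1 ± 1.91 CPM in CD103KO and 95.1 ± 2.77 CPM in WT (adjusted p = 0.694, edgeR).

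Of 15 T cell activation markers edgeR and limma-voom called 0 and DESeq2 called 1, and the median log2 fold change was -0.02. The 2 with an unadjusted p under 0.05 (edgeR), both higher, were Mki67, a marker of dividing cells, at 17.2 ± 4.76 CPM in CD103KO and 10.5 ± 0.757 CPM in WT (log2 fold change 0.71, adjusted p = 0.257, edgeR; 0.00143, DESeq2), and Hk2, a hexokinase, at 4.69 ± 0.233 CPM in CD103KO and 3.84 ± 0.164 CPM in WT (0.29, adjusted p = 0.440, edgeR). Over the 7 lists, 131 genes were tested, 0 were called with edgeR, and the median log2 fold change was -0.003, that of all tested genes. Among the 131, 6 positive and 3 negative changes had an unadjusted p under 0.05 (edgeR), as had 8.73% of all tested genes.

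**Figure D4:**
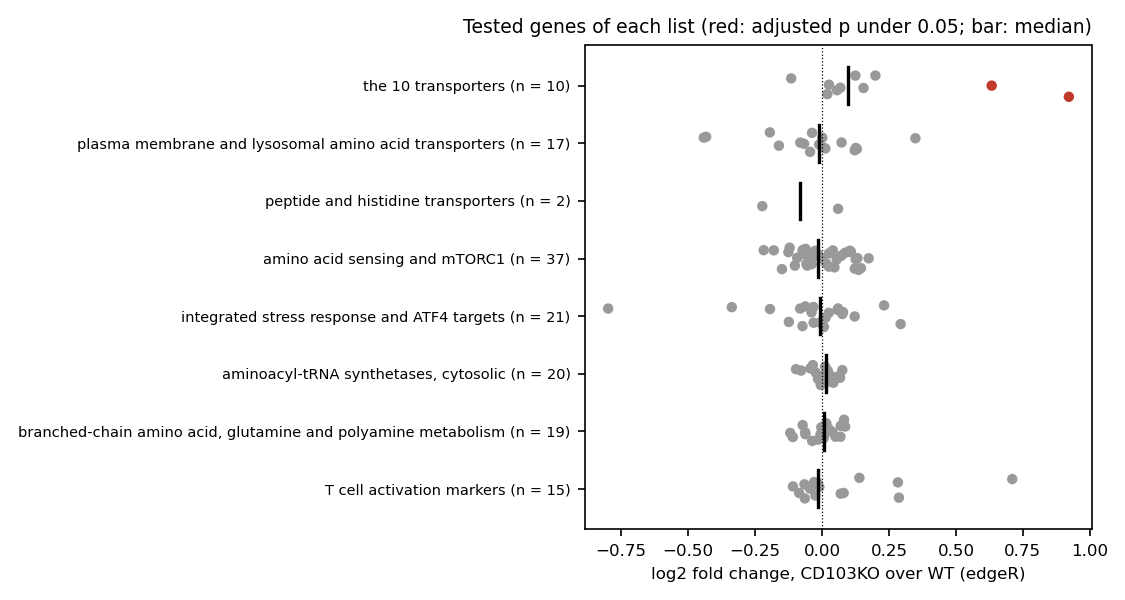
Log2 fold change (CD103KO over WT, edgeR) of each tested gene in the transporter group and in 7 lists of related genes; bars are medians and red marks an adjusted p under 0.05. Slc43a2 (0.63) and Slc15a2 (0.92) are the called points, and the medians of the 7 lists lie between -0.08 and 0.02.

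Of 14 B cell markers, all tested, edgeR called 3, all higher: Fcer2a at 0.849 ± 0.0822 CPM in CD103KO and 0.141 ± 0.0138 CPM in WT, Cd79a at 2.53 ± 0.493 CPM in CD103KO and 0.759 ± 0.0545 CPM in WT, and Ms4a1 at 1.83 ± 0.742 CPM in CD103KO and 0.377 ± 0.0443 CPM in WT. Over all tested genes 0.141% were called as higher. With a term for Xist reads, and with only the libraries without them, edgeR called 0 of the 14. The groups did not overlap for 10 of the 14, where 14.2% of all tested genes did not, and 0 were at 0 counts in all libraries. All 14 log2 fold changes were positive, from 0.01 to 2.58 with a median of 1.88. An unadjusted p under 0.05 (edgeR) was found for 10 of them, against 8.73% of all tested genes. The summed level, which weighs each marker by its CPM, was 53.1 to 61.9 CPM in CD103KO and 43.7 to 49.9 CPM in WT. Erythroid and platelet markers summed to 57.5 to 93.1 CPM in CD103KO and 33.0 to 50.1 CPM in WT, mostly haemoglobin, with Pf4 and Gp9 at 0 counts in all libraries. Of the 10, 5 were tested, edgeR and limma-voom called 0 and DESeq2 called 3, and 4 were higher at an unadjusted p under 0.05, which 8.73% of all tested genes had. Hba-a2 was at 29.5 ± 7.20 CPM in CD103KO and 14.5 ± 2.83 CPM in WT (adjusted p = 0.123, edgeR), and Hbb-bt at 4.30 ± 1.21 CPM in CD103KO and 1.87 ± 0.398 CPM in WT (adjusted p = 0.145, edgeR). Slc43a2 and Slc15a2 were higher in the same libraries, and the part of these markers in their differences was not tested. In bulk RNA a change in the share of cells and a change of RNA per cell cannot be told apart.

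Lists for CD8 T cells (11 tested, with an unadjusted p under 0.05 for 1 positive and 2 negative changes), myeloid and dendritic cells (7 tested, 0), CD4 T cells (4 tested, 0), NK and innate-like cells (6 tested, 0) and lymph node stroma (3 tested, 1 negative) had 0 members called by edgeR, DESeq2 or limma-voom. The 11 CD8 T cell markers had 6 positive and 5 negative log2 fold changes, from -0.135 to 0.099 with a median of 0.004. The groups did not overlap for 3 of the 11, where 14.2% of all tested genes had such groups. Ccr7, which guides T cells into lymph nodes, was at 443 ± 6.37 CPM in CD103KO and 486 ± 5.96 CPM in WT, and Il7r, the IL-7 receptor, at 281 ± 5.29 CPM in CD103KO and 304 ± 9.34 CPM in WT. Fcgr3 was at 0.785 ± 0.110 CPM in CD103KO and 0.974 ± 0.103 CPM in WT, and Csf1r at 0.110 ± 0.0427 CPM in CD103KO and 0.172 ± 0.0597 CPM in WT. Cd40lg was at 0.903 ± 0.169 CPM in CD103KO and 0.680 ± 0.251 CPM in WT, Klrd1 at 116 ± 2.57 CPM in CD103KO and 109 ± 11.5 CPM in WT, and Gzma at 3.36 ± 1.42 CPM in CD103KO and 2.77 ± 0.608 CPM in WT. Cdh5 was at 0.217 ± 0.0182 CPM in CD103KO and 0.407 ± 0.0706 CPM in WT, and Col1a1 at 0.428 ± 0.00745 CPM in CD103KO and 0.293 ± 0.137 CPM in WT.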

How the data were processed

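Polyadenylated RNA of sorted cells was sequenced in 3 CD103KO and 3 WT samples, the libraries being stranded per the labels' protocols. Reads went through RSEM after bcl2fastq 2.20, cutadapt 1.18 and STAR 2.7.0f (builds GRCm38 and mm10), per the submitters' processing notes. RSEM's version, annotation and strand setting: not given in the sources used here. As the only table, the authors deposited expected counts per gene, estimates that are not normalized, of which 6.48% were not whole. They were rounded.

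Testing used edgeR 4.0.16 in R 4.3.3: filterByExpr (minimum count 10), TMM factors, the quasi-likelihood test on group alone, Benjamini-Hochberg adjustment over 13470 genes at 0.05. CPM use TMM-scaled library sizes; the standard error is the log2 fold change divided by the square root of F. All 55450 identifiers matched GENCODE M21, the source of coordinates and exon lengths; promoter windows are from RefSeq (GRCm38.p6). Copies were sought with BLAST+ 2.17.0 at 90% identity over 300 bases. Pairs of libraries within groups differed by more than sampling noise.

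The transporters and lists were chosen with earlier results of these data known. Named genes are Itgae, the 10 transporters, up to 3 called members of each list or the 2 of smallest p, the 2 tested genes nearest to Slc43a2 on each side, and Xist, Ddx3y, Cd8a, Cd8b1, Cd3e and Cd4. The values of 1 gene under this rule are left out, though counts include it. Tlcd2, Pf4 and Gp9 were named outside it, after their values were seen. Alternatives were RLE and upper-quartile factors, total counts, no filter, 1 CPM in 3 libraries, DESeq2 1.42.0, limma-voom 3.58.1, unrounded counts, the replicate number as a block, a term for libraries with Xist above 1 CPM, only libraries without it, and each library left out.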

Additional observations from a re-analysis of the deposited data

How the results depend on the processing

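Slc43a2 was called in all 17 alternatives. Slc15a2 was called in 11 of 17 and Slc43a2 alone remained among the 10 transporters, a count of 1, with the replicate block, the term for Xist reads and only the libraries without Xist reads. With each library left out the count of transporters was 1 to 2, being 1 without CD103KO replicate 2, without CD103KO replicate 3 and without WT replicate 1. The number of genes called over the whole table was 30, and it was 112 with no filter, 137 with DESeq2, 15 with the term for Xist reads, 13 with only libraries without them and 19 to 59 with each library left out, 59 without CD103KO replicate 1, 52 without WT replicate 3 and 19 without CD103KO replicate 2. Genes called in the 7 lists numbered 0, and 2 with no filter or DESeq2 (Eif2ak2 and Mki67). B cell markers called numbered 8 with no filter or DESeq2 and 0 with either Xist setting. The sign changed for Slc7a5 (-0.0007), Slc38a2 (-0.0509) and Slc1a5 (0.0107) without WT replicate 3 and for Slc38a2 (-0.0166) without CD103KO replicate 2, with leave-one-out ranges of -0.0007 to 0.0402, -0.0509 to 0.0803 and -0.3195 to 0.0107 for Slc7a5, Slc38a2 and Slc1a5. The term for Xist reads moved Slc43a1 to 0.51, Slc38a1 to 0.25, Slc38a2 to 0.19 and Slc1a5 to -0.34. In the same fit Slc7a1 stood at 0.12, Slc7a5 at 0.06, Slc3a2 at 0.04 and Slc7a6 at 0.02. The cause of these shifts was not tested.

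No pairing of the libraries by replicate number was seen: deviations from the group mean correlated at -0.28, -0.03 and 0.03 between libraries of the same number. Not every library correlated best with its own number. With 3 libraries in each group this does not exclude a pairing. With the replicate block 24 genes were called, and the log2 fold change of Slc15a2 was 0.93 (adjusted p = 0.0539, edgeR). Copies of 90% identity or more were found for Slc38a1 (4 other annotated genes), so the counts of Slc38a1 may share reads with such copies. The longest match, 1450 bases at 96.6% identity, was to a gene with 0 counts in all libraries. For Slc43a2 the match was Gm45606, the antisense gene that overlaps it, rather than a copy elsewhere. Depth limits Slc43a1 most, at 90 to 155 counts per library.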
